A study of Mus musculus with 12 samples.

Results

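ATRA (all-trans retinoic acid, the form in which vitamin A controls genes) was compared with its solvent DMSO in embryoid bodies (EBs), the aggregates that embryonic stem (ES) cells form in suspension without the self-renewal factor LIF. The comparison used every gene that a single-symbol probe set represented, 19938 in all, on 3 arrays of ATRA-treated EBs and 3 arrays of DMSO-treated EBs, which are 6 of the 12 arrays of the series. All samples came from one clone of the mouse ES cell line D3, so the 3 replicates of a group, which the labels call biological, do not sample other clones. EBs of day 4 were exposed for 12 h to DMSO or to ATRA at a labelled concentration of 5 micromolar, and it is open from the labels whether these hours belong to the 4 days or come on top of them. The other arrays hold 3 samples of undifferentiated ES cells at day 0 and 3 of day 4 EBs without either agent, and they entered the fit for their share in the estimate of the spread. EBs are mixtures of cell states, and in RNA of whole EBs a change in the number of cells of one kind and a change of RNA per cell cannot be told apart.

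Retinoic acid acts through nuclear receptors: a retinoic acid receptor (RAR) and a retinoid X receptor bind DNA as a pair, and the ligand turns the pair from a repressor into an activator of transcription. In the vertebrate embryo it gives the neural tube its posterior identity, largely through the Hox genes, and in the fetal ovary it sets off the meiotic programme. In ES cells and EBs it is widely used to drive exit from pluripotency, often towards neural fates, and the cells answer by making the enzymes that destroy it. The descriptions below pass over the Hox and retinoid genes after a check and follow gene families by function.

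The labels were checked on genes known to respond to retinoic acid. Dhrs3, a retinaldehyde reductase gene, was at 8.96, 9.04 and 8.96 in the DMSO arrays and at 11.54, 11.60 and 11.55 in the ATRA arrays, on the log2 scale that all levels and differences below use. The meiotic gatekeeper Stra8 was at 6.85, 6.68 and 6.32 with DMSO and at 10.21, 10.34 and 10.36 with ATRA. In both genes all ATRA arrays lay above all DMSO arrays. Dhrs3 rose by 2.58 ± 0.05 (difference ± SE, n = 3 arrays per group, here and below) and Stra8 by 3.68 ± 0.14, with limma adjusted p-values of 2.53e-11 and 9.6e-09. The pluripotency genes Pou5f1 (13.36 to 13.40 with DMSO, 13.35 to 13.42 with ATRA) and Nanog (13.26 to 13.32 and 13.28 to 13.31) lay near the top of the array range in all 6 arrays, with ranges that overlapped, where an array may compress a difference. The summary of 15 pluripotency markers was also high in both groups, with mean levels of 12.38 to 12.42 with DMSO and 12.28 to 12.29 with ATRA.

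The sequence before a gene's start was read for the repeats that RAR dimers bind, since it can be set beside the response of each gene. A repeat here is a pair of 6-base cores in the same orientation, each AGGTCA or a form of it with G as the first base, T as the third, or both, and 5 bases (DR5), 2 bases (DR2) or 1 base (DR1) apart, on either strand, where matches may overlap. Both printed sequences are the 250 bases before the start in RefSeq (GRCm38.p6), read on the strand of the gene, with the DR5 cores in capitals. They are shown because these were the only ranked or check genes with a DR5 or DR2 match, out of 28 with a promoter in the table.

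Cyp26a1, chr19:37697558-37697807, + strand: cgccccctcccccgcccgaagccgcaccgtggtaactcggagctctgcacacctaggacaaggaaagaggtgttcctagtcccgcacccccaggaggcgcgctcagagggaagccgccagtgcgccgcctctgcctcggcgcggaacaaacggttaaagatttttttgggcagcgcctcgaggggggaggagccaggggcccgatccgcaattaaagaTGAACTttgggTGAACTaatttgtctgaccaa
Rarb, chr14:16575477-16575726, - strand: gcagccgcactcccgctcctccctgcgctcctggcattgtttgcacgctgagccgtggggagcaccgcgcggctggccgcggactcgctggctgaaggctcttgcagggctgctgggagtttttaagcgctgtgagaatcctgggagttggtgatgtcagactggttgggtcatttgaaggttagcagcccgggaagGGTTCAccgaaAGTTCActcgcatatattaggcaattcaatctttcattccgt

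Cyp26a1 encodes the main retinoic acid-degrading enzyme, and Rarb a retinoic acid receptor. Cyp26a1 was at 9.91, 9.66 and 9.88 with DMSO and at 11.68, 11.59 and 11.45 with ATRA, and it rose by 1.76 ± 0.09. With DMSO it was already 0.75 ± 0.09 higher than in day 4 EBs without an agent. Rarb was at 6.87, 7.19 and 6.86 with DMSO and at 8.55, 8.63 and 8.78 with ATRA, and it rose by 1.68 ± 0.09. Neither gene had an ATRA array within the DMSO range. The Cyp26a1 match lies on the opposite strand, 32 bases before the start, and the Rarb match on the gene's own strand, 53 bases before it. Over the 15614 genes with a promoter in the RefSeq table (300 bases, from 250 before to 50 after the start), a DR5 match was found in 11, or 0.0704%. It was found in 4 of 975 genes that passed the test as higher (0.41%), in 1 of 1094 that passed as lower (0.0914%) and in 6 of 13545 that did not pass (0.0443%). The others that passed were Ppbp (0.43 ± 0.11), the embryonic globin gene Hbb-y (0.30 ± 0.08) and Syndig1 (-0.47 ± 0.06). Ppbp lost its call without DMSO replicate 1, DMSO replicate 2, ATRA replicate 1 or ATRA replicate 3 (0.36 to 0.49 over the 6 fits that each left out 1 array), and Hbb-y in 5 of these 6 fits. A DR2 match was found in 2 of the higher genes (0.205%), in 0 of the lower ones and in 12 of those that did not pass (0.0886%). The 2 higher genes were the chloride channel gene Ano1 and Stap2 (not called in 4 of the 6 fits). DR1 matches were found in 3 higher (0.308%), 3 lower (0.274%) and 32 not passed genes (0.236%). With the 2 cores required to be identical, DR5 matches were left in 2 higher (0.205%), 0 lower and 2 not passed genes (0.0148%). DR2 matches were then left in 1 (0.103%), 0 and 6 (0.0443%), and DR1 matches in 3 (0.308%), 1 (0.0914%) and 13 (0.096%). These matches describe letters in a short window, and most genes that rose had none there.

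Over all genes, 2655 passed limma at an adjusted p of 0.05, which is 13.3% of the genes tested, with 1249 higher (6.26%) and 1406 lower (7.05%). Most changes were small: the median size of a change among them was 0.306, 207 genes were at least 1.5-fold higher and 135 at least 1.5-fold lower, and 68 and 18 passed 2-fold. The largest changes therefore ran mainly upward while the more numerous small ones did not. The share that passed depended on the level of the gene. With the genes split by mean level into 4 groups of equal size, it was 2.47% in the lowest group and 12.8%, 21.3% and 16.6% in the groups above it, so a family of weakly detected genes has fewer members that could pass. For 39.6% of all genes the values of the 3 ATRA arrays all lay above or all below those of the DMSO arrays. DMSO against day 4 EBs without an agent gave 149 genes (0.747%), and ATRA against the same EBs gave 3673 (18.4%). These 3 comparisons share arrays.

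**Figure D1:**
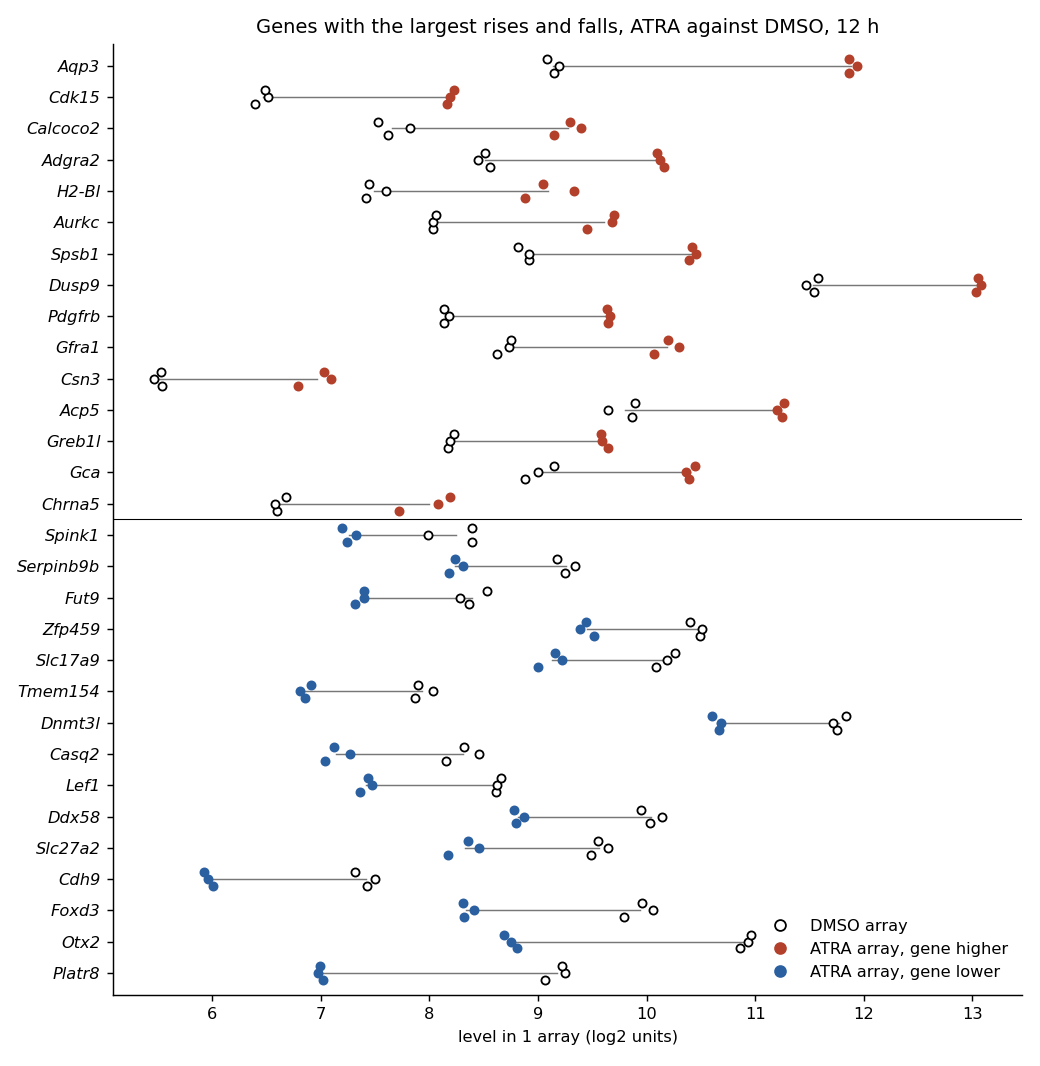
Levels (log2 units) of the 15 genes with the largest rises and the 15 with the largest falls, Hox, retinoid, microRNA and unnamed genes left out; open circles are the 3 DMSO arrays, filled circles the 3 ATRA arrays, and lines join the group means. Only genes whose ATRA arrays all lay to one side of the DMSO arrays were ranked, so this separation was fixed by the choice. The shifts run from 2.74 in Aqp3 to -2.18 in Platr8.

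The genes with the largest rises outside the Hox and retinoid lists came from several functional classes. The water and glycerol channel gene Aqp3 went from 9.15, 9.19 and 9.08 with DMSO to 11.86, 11.94 and 11.86 with ATRA (6.7-fold). Calcoco2, which encodes a selective autophagy receptor, went from 7.62, 7.82 and 7.53 to 9.15, 9.40 and 9.30, a rise of 1.63 ± 0.13 (adjusted p = 3.47e-06). Adgra2, an adhesion G protein-coupled receptor gene that serves Wnt signalling in brain vessels, went from 8.56, 8.45 and 8.51 to 10.16, 10.12 and 10.10, a rise of 1.62 ± 0.05. The ATRA arrays of these 3 genes lay at least 1 log2 unit above their DMSO arrays. Aurkc, the Aurora kinase gene of germ cells, was at 8.03, 8.03 and 8.06 with DMSO and at 9.45, 9.68 and 9.70 with ATRA, a rise of 1.57 ± 0.07. Spsb1, a SOCS-box adaptor gene of a ubiquitin ligase, was at 8.92, 8.92 and 8.82 and at 10.39, 10.46 and 10.42, a rise of 1.53 ± 0.05. Acp5, the tartrate-resistant acid phosphatase gene of osteoclasts, was at 9.87, 9.65 and 9.89 and at 11.25, 11.20 and 11.27, a rise of 1.44 ± 0.06. That the ATRA arrays of a ranked gene lay above every DMSO array was a condition of the ranking. Greb1l, a gene needed for kidney formation, rose by 1.41 ± 0.07, the calcium-binding protein gene Gca by 1.39 ± 0.08, and the milk protein gene Csn3 (5.47 to 5.54 with DMSO, 6.79 to 7.10 with ATRA), by 1.46 ± 0.12.

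Beyond these 15, other genes among the 68 that rose at least 2-fold are named here after their values were seen. The erythropoietin gene Epo rose by 1.33 and the homeobox gene Cdx1, a regulator of Hox genes in the posterior embryo, by 1.31. Dmrt1, a transcription factor gene of the testis, rose by 1.02. Hal, which encodes the histidine-degrading enzyme, rose by 1.24, Ptprz1, a receptor phosphatase gene of neural progenitors, by 1.14, and Pmp22, a myelin protein gene, by 1.08.

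The largest falls were led by a non-coding RNA and included transcription factor genes. Platr8, a long non-coding RNA named for its link with pluripotency, was at 9.07, 9.25 and 9.22 with DMSO and at 7.02, 6.98 and 6.99 with ATRA, a fall of 2.18 ± 0.07 (adjusted p = 4e-09). Otx2, a homeobox gene of the epiblast and the anterior brain, was at 10.86, 10.93 and 10.96 and at 8.81, 8.75 and 8.69. Dnmt3l, the cofactor gene of the de novo DNA methyltransferases, was at 11.75, 11.72 and 11.84 and at 10.67, 10.69 and 10.60, a fall of 1.12 ± 0.05. Against day 4 EBs without an agent, Dnmt3l was higher with DMSO (0.33 ± 0.05) and lower with ATRA (-0.79 ± 0.05). That all ATRA arrays of these genes lay below all DMSO arrays was again a condition of the ranking. The type II cadherin gene Cdh9 fell to 6.01, 5.96 and 5.93, from 7.43, 7.50 and 7.32. Fut9, which encodes the fucosyltransferase that makes the stage-specific antigen SSEA-1, fell by 1.02 ± 0.09 (8.37, 8.28 and 8.53 with DMSO, 7.32, 7.40 and 7.40 with ATRA). Slc17a9, the vesicular nucleotide transporter gene, fell by 1.05 ± 0.08, and the protease inhibitor gene Serpinb9b by 1.01 ± 0.06. Spink1, a trypsin inhibitor gene, fell from 8.39, 7.99 and 8.39 to 7.24, 7.33 and 7.20. The membrane protein gene Tmem154 fell by 1.07 ± 0.11 and the zinc finger gene Zfp459 by 1.02 ± 0.08.

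For 96 families and functions the members were counted against the 13.3% of all genes. The share was above that value in 73 of them, and 4 had no member that passed. The median differences of the 96 lists lay between -0.12 and 0.14. No list was tested as a whole, and olfactory and vomeronasal receptors, of which few passed, make up part of the background. The lists were also chosen with earlier results of these data known. Genes named below kept their call when each of the 6 arrays was left out in turn, unless a sentence says otherwise.

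**Figure D2:**
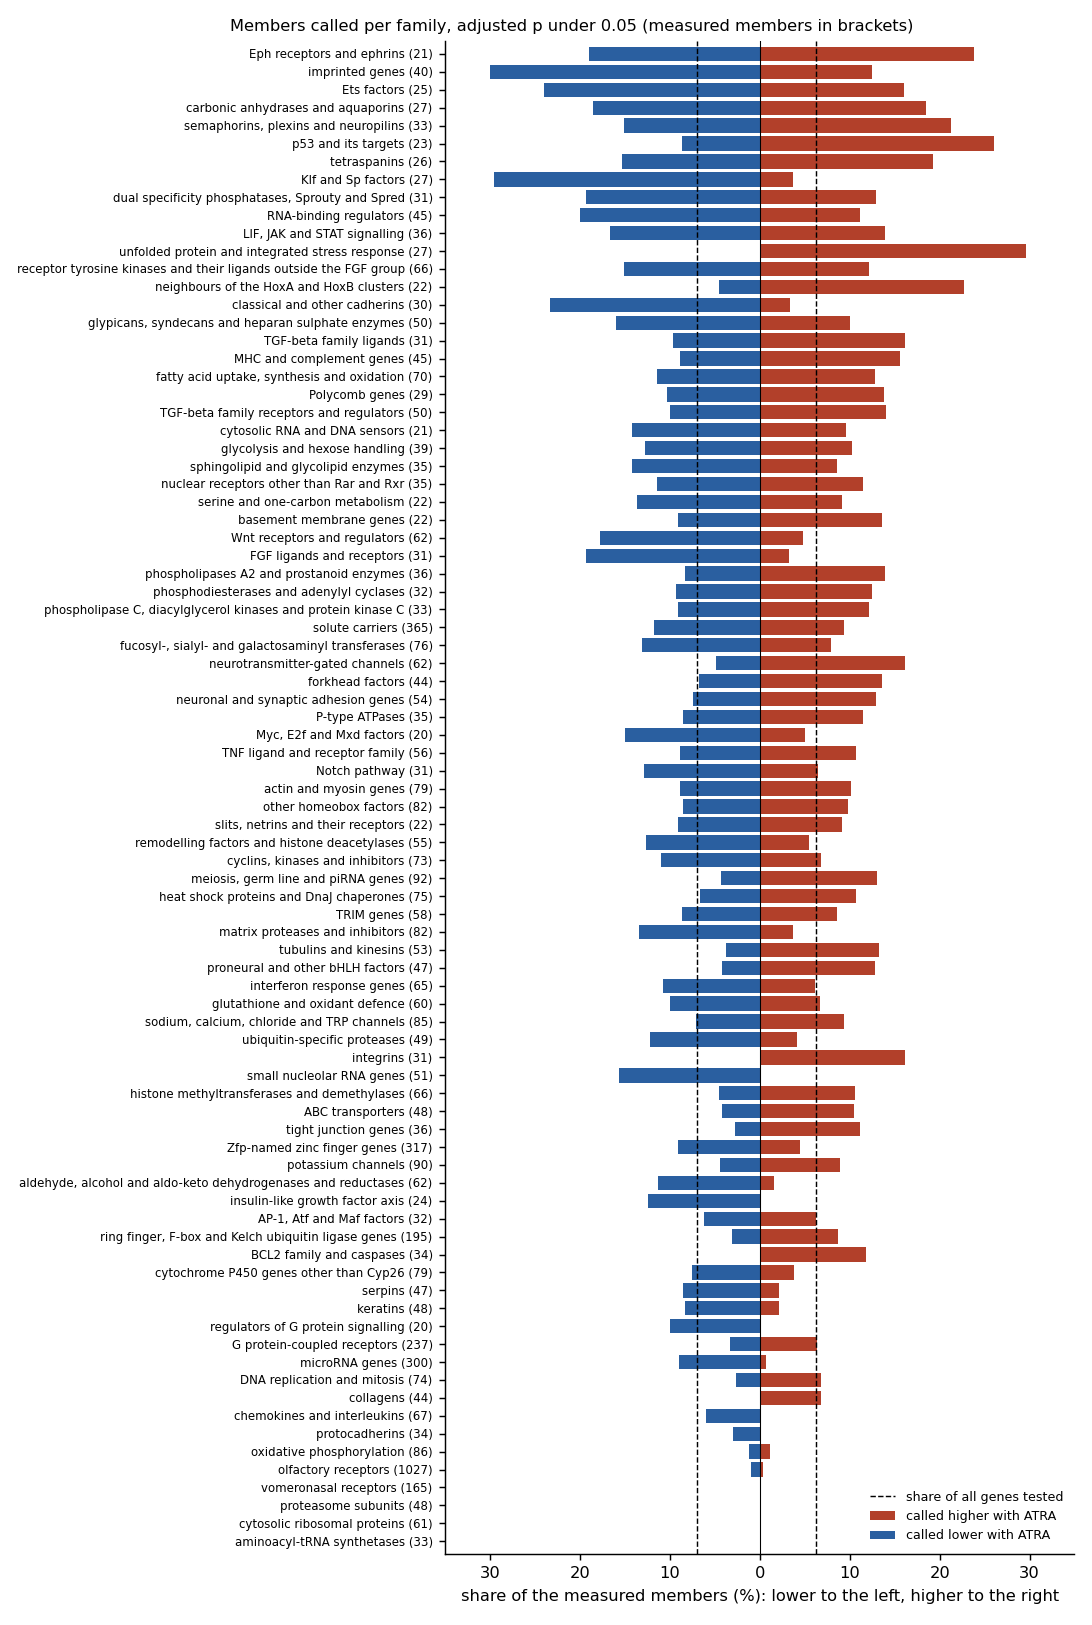
Share of measured members that passed limma at an adjusted p of 0.05, lower with ATRA to the left and higher to the right, for families with at least 20 measured members (number in brackets); dashed lines mark the shares over all genes, 7.05% lower and 6.26% higher. Stress response genes and integrins extend to the right only and Klf and Sp factors mainly to the left, while Eph receptors with ephrins and Ets factors extend both ways.

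Transcription factor families split in different ways. Of 27 Klf and Sp factors, zinc finger proteins of GC-rich promoters, 1 rose and 8 fell (median difference -0.05, against 0.01 over all genes), among them Klf15 by 0.47 ± 0.07, Klf9 by 0.36 ± 0.05 and Klf8 by 0.28 ± 0.05. Of 25 Ets factors, 4 rose and 6 fell. Erf, a repressor of this family that ERK signalling shuts out of the nucleus, was at 10.68, 10.79 and 10.76 with DMSO and at 11.76, 11.73 and 11.76 with ATRA, a rise of 1.01 ± 0.04, while Spic (-0.67 ± 0.07) and Etv6 (-0.45 ± 0.07) fell. The ATRA values of Erf spanned 0.03 and lay clear of the DMSO values. Of 44 forkhead factors, 6 rose and 3 fell. Foxd3, a gene of pluripotent cells and the neural crest, had the largest change of the list, from 9.79, 10.06 and 9.96 with DMSO to 8.32, 8.41 and 8.31 with ATRA, a fall of 1.59 ± 0.07 (adjusted p = 2.28e-08). Foxn4, a gene of retinal and spinal interneurons, rose by 0.97 ± 0.06 (8.38 to 8.57 with DMSO, 9.42 to 9.54 with ATRA) and Foxp1 by 0.88 ± 0.06 (10.05 to 10.27 and 11.02 to 11.05). Among 47 proneural and other bHLH factors 6 rose and 2 fell: Tal2 (0.89 ± 0.09), Bhlha15 (0.77 ± 0.07) and the neural tube gene Olig3 (0.48 ± 0.09) rose, and the trophoblast gene Ascl2 (-0.94 ± 0.08) and Neurog3 (-0.45 ± 0.07) fell. Id4, whose product blocks bHLH factors, fell by 0.73 ± 0.05, and the Notch target Hey2 (-0.42 ± 0.09) fell with it, in a group of 14 Hes, Hey and Id genes with 3 falls and 0 rises.

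Homeobox genes outside the Hox clusters went both ways, 8 of 82 higher and 7 lower (9 in all without DMSO replicate 2). Prrx2, a gene of limb and face mesenchyme, rose by 0.96 ± 0.05 (9.51, 9.59 and 9.59 with DMSO, 10.44, 10.58 and 10.56 with ATRA) and Dlx3 by 0.53 ± 0.09. Gbx2, which opposes Otx2 at the midbrain-hindbrain border and is also expressed in ES cells, fell by 0.76 ± 0.05 (11.22, 11.28 and 11.19 with DMSO, 10.46, 10.48 and 10.48 with ATRA). Otx2 and Gbx2 thus both fell. Of 9 Pax genes 2 rose and 1 fell (33.3%). The eye and neural tube gene Pax6 was among the rises (0.70 ± 0.09), and Pax8 fell by 0.34 ± 0.06. Lhx1, a LIM homeobox gene of the organizer, fell by 0.69 ± 0.09. Of 19 Sox factors 1 rose and 5 fell, and 3 were called without DMSO replicate 1. The neural genes Sox11 (-0.65 ± 0.12) and Sox21 (-0.47 ± 0.06) and the gene Sox9 (-0.26 ± 0.05) were among the falls. Of 11 Gata factors and cofactors 3 rose, with the endoderm gene Gata6 at 0.42 ± 0.05. Among 35 nuclear receptors other than RAR and RXR, 4 rose and 4 fell. Nr6a1, the germ cell nuclear factor gene that silences pluripotency genes, rose by 0.75 ± 0.06 (10.33, 10.48 and 10.42 with DMSO, 11.16, 11.16 and 11.17 with ATRA). Nr5a2 fell by 0.65 ± 0.05 and Nr0b1, a gene of naive ES cells, by 0.28 ± 0.05. Mycn, a growth regulator, fell by 0.88 ± 0.06, and its 3 ATRA values (10.39, 10.29 and 10.24) lay below its DMSO values (11.19, 11.13 and 11.23). In the same list of Myc, E2f and Mxd factors, Mxd4, which encodes a Myc antagonist, rose by 0.29 ± 0.06. That list had 1 rise and 3 falls of 20, and 2 calls without DMSO replicate 2, ATRA replicate 1 or ATRA replicate 3. Of 317 genes named Zfp, 14 rose and 29 fell (13.6% in all).

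Guidance molecules, which steer axons and sort cells into compartments, had members on both sides. Of 21 Eph receptors and ephrins, which signal between touching cells in both directions, 5 rose and 4 fell (42.9%, against 13.3% of all genes). The ligand gene Efnb3 rose by 0.62 ± 0.05 (8.08, 8.08 and 8.06 with DMSO, 8.68, 8.76 and 8.64 with ATRA) and its relative Efnb2 fell by 0.63 ± 0.06 (8.62, 8.72 and 8.62 with DMSO, 8.10, 7.96 and 8.02 with ATRA). The receptors split in the same way: Epha2 (0.46 ± 0.06) and Epha7 (0.43 ± 0.08) rose and Epha4 (-0.41 ± 0.05) fell. Of 33 semaphorins, plexins and neuropilins, 7 rose and 5 fell (36.4%), and 7 were called without ATRA replicate 2. The secreted Sema3e, a repellent of vessels and axons, rose by 1.10 ± 0.07 (7.04 to 7.27 with DMSO, 8.18 to 8.32 with ATRA). Sema4g (0.77 ± 0.07) and Sema7a (0.55 ± 0.06) rose too, and the transmembrane Sema6a (-0.60 ± 0.07), Sema5b (-0.39 ± 0.05) and the receptor gene Plxnb2 (-0.32 ± 0.05) fell. Of 22 slits, netrins and their receptors 2 rose and 2 fell (18.2%). Among them netrin 1 (Ntn1), an attractant of commissural axons, fell by 0.83 ± 0.05, from 9.60, 9.74 and 9.68 to 8.85, 8.82 and 8.87.

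In the TGF-beta family ligand genes and inhibitor genes each changed in both directions. Of 31 ligand genes 5 rose and 3 fell. Lefty1, an inhibitor of Nodal signalling, was at 11.13, 11.41 and 11.35 with DMSO and at 12.46, 12.68 and 12.64 with ATRA, a rise of 1.29 ± 0.08 (adjusted p = 5.42e-07), and the inhibin and activin subunit genes Inhbb (0.41 ± 0.04) and Inha (0.34 ± 0.05) rose too. Bmp4 (-0.30 ± 0.05), Gdf3 (-0.32 ± 0.05) and Tgfb1 (-0.37 ± 0.05) fell. The ATRA arrays of Lefty1 all lay more than 1 log2 unit above the highest DMSO array. Of 50 receptors and regulators 7 rose and 5 fell. The secreted antagonists Cer1 (-0.90 ± 0.09), Grem1 (-0.84 ± 0.08) and Fst (-0.63 ± 0.06) fell, and the intracellular inhibitors Smad6 (0.45 ± 0.06), Skil (0.44 ± 0.06) and Pmepa1 (0.57 ± 0.04) rose, as did the secreted Fstl3 (0.60 ± 0.05).

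In the Wnt pathway 2 of 19 ligand genes rose and 0 fell (10.5%, against 13.3% of all genes). The rises were Wnt8a by 0.50 ± 0.08 and Wnt3a by 0.46 ± 0.07. Of 62 receptors and regulators 3 rose and 11 fell. Porcn, whose enzyme attaches the lipid that Wnt proteins need to be secreted, was at 10.76, 10.78 and 10.83 with DMSO and at 11.76, 11.80 and 11.78 with ATRA (1.99-fold). Tcf7l1, the repressive factor of the pathway in ES cells, rose by 0.30 ± 0.04, and its relative Lef1 fell from 8.61, 8.62 and 8.66 to 7.36, 7.47 and 7.44. The ATRA and DMSO values of these genes did not overlap. The R-spondin receptor gene Lgr4 fell by 0.50 ± 0.06 and the secreted inhibitor Sfrp4 by 0.91 ± 0.09. The hedgehog list had 3 rises and 0 falls among 17 genes, with the inhibitor and target Hhip at 0.95 ± 0.13 and the coreceptor Boc at 0.37 ± 0.05. The Notch list had 2 rises and 4 falls among 31, with Notch4 at 0.50 ± 0.07, the ligand Jag1 at -0.56 ± 0.04 and the DNA-binding factor Rbpj at -0.26 ± 0.05. Another probe set of Rbpj, with lower levels, was at -0.89 ± 0.10.

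In the list of FGF genes 1 of 31 rose and 6 fell. The primed epiblast ligand Fgf5 fell by 0.62 ± 0.13, the ES cell ligand Fgf4 by 0.49 ± 0.04 and Fgf10 by 0.42 ± 0.07. Among 66 other receptor tyrosine kinases and their ligands 8 rose and 10 fell. Pdgfrb, a receptor of the platelet-derived growth factors, was at 8.14, 8.18 and 8.14 with DMSO and at 9.65, 9.66 and 9.64 with ATRA, a 2.82-fold rise (adjusted p = 1.37e-09). Gfra1, the coreceptor gene for GDNF, was at 8.62, 8.73 and 8.75 and at 10.07, 10.30 and 10.20, a rise of 1.49 ± 0.06, and the related Gfra3 rose by 0.75 ± 0.09. The ligand genes Pdgfc (-0.87 ± 0.06) and Pdgfa (-0.52 ± 0.04) fell. The receptor gene Kit rose by 0.58 ± 0.06 and the gene of its ligand, Kitl, fell by 0.51 ± 0.10. The dual specificity phosphatases, Sprouty and Spred genes, which include feedback inhibitors of ERK signalling, split as well, with 4 of 31 higher and 6 lower. Dusp9, an ERK phosphatase gene of ES cells, was at 11.54, 11.47 and 11.58 with DMSO and at 13.03, 13.08 and 13.05 with ATRA, a rise of 1.53 ± 0.07. Dusp5 rose by 0.68 ± 0.05, and Spry2 (12.13, 12.12 and 12.15 with DMSO, 11.32, 11.39 and 11.39 with ATRA), Dusp4 (-0.47 ± 0.06) and Spred1 (-0.39 ± 0.06) fell.

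In the pathway of LIF, the cytokine that the EB culture lacks, 5 of 36 genes rose and 6 fell, with 7 called without DMSO replicate 2 or ATRA replicate 3. Both chains of the LIF receptor fell, Lifr by 0.38 ± 0.05 and Il6st by 0.32 ± 0.04, and the related ligand-binding chain Cntfr rose by 0.64 ± 0.05. The STAT target kinase Pim1 was at 10.99, 11.01 and 11.11 with DMSO and at 11.94, 11.83 and 11.94 with ATRA, a rise of 0.87 ± 0.05. The feedback inhibitor Socs2 fell by 0.91 ± 0.07, from 11.50, 11.49 and 11.38 to 10.60, 10.46 and 10.60. In the insulin-like growth factor axis 0 of 24 genes rose and 3 fell, a smaller share than that of all genes. The falls included Irs4 by 0.82 ± 0.16 and Igf1r by 0.31 ± 0.06, and no direction of the axis is read from 3 calls. Of 237 G protein-coupled receptors 15 rose and 8 fell (9.7%), with 14 or 15 called without DMSO replicate 2, DMSO replicate 3, ATRA replicate 1 or ATRA replicate 2. The lysophosphatidic acid receptor genes Lpar4 (-0.58 ± 0.09) and Lpar6 (-0.54 ± 0.11) fell.

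Genes of cell shape and adhesion changed in part. Of 30 classical and other cadherins 1 rose and 7 fell: the epithelial Cdh1 rose by 0.24 ± 0.04, and Cdh3 (-0.51 ± 0.04), the endothelial Cdh5 (-0.30 ± 0.05) and Cdh6 (-0.60 ± 0.09) were among the falls. Of 31 integrins 5 rose and 0 fell, but 2 or 3 were called without DMSO replicate 1, DMSO replicate 2, ATRA replicate 1, ATRA replicate 2 or ATRA replicate 3. The laminin receptor chain Itga3 rose by 0.80 ± 0.06 (9.97 to 10.14 with DMSO, 10.84 to 10.90 with ATRA) and the fibronectin receptor chain Itga5 by 0.40 ± 0.04. Of 82 matrix proteases and inhibitors 3 rose and 11 fell. Mmp9, a gelatinase gene, rose by 0.74 ± 0.07, and Mmp10 (-0.61 ± 0.07), Adam19 (-0.59 ± 0.06) and the inhibitor Timp3 (-0.55 ± 0.07) fell. Of 50 proteoglycan and heparan sulphate genes 5 rose and 8 fell, with 8 called without DMSO replicate 1 or ATRA replicate 3. The heparan sulphate polymerase gene Ext1 fell by 0.67 ± 0.05, its relative Extl1 rose by 0.67 ± 0.07, and the glypican Gpc4 fell by 0.56 ± 0.04. Among 79 actin and myosin genes 8 rose and 7 fell. The fast muscle alpha-actinin gene Actn3 rose by 1.34 ± 0.05 (9.65, 9.70 and 9.59 with DMSO, 10.91, 11.06 and 10.99 with ATRA), and the smooth muscle calponin gene Cnn1 by 0.67 ± 0.08. Of 26 tetraspanins 5 rose and 4 fell, with Tspan17 at 0.60 ± 0.07 and Tspan5 at -0.63 ± 0.06.

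Transporters and channels were counted in several lists. Of 365 solute carriers 34 rose and 43 fell (21.1%), and after quantile normalization 42 rose and 41 fell, so which direction was more frequent depends on how arrays are scaled. The anion exchanger gene Slc4a9 was at 7.85, 7.91 and 7.86 with DMSO and at 8.92, 9.10 and 9.18 with ATRA, a rise of 1.19 ± 0.06. The intestinal peptide transporter gene Slc15a1 was at 10.59, 10.64 and 10.67 and at 11.64, 11.64 and 11.70, a rise of 1.03 ± 0.05, and the sulphate transporter gene Slc26a2 rose by 0.84 ± 0.06. The ATRA arrays of Slc4a9 and Slc15a1 lay above all DMSO arrays. Of 62 neurotransmitter-gated channels 10 rose and 3 fell. The nicotinic receptor chain Chrna5 rose by 1.38 ± 0.11 (6.60, 6.58 and 6.68 with DMSO, 7.72, 8.08 and 8.19 with ATRA) and the cochlear chain Chrna9 fell by 0.90 ± 0.08 (9.84, 10.10 and 10.11 with DMSO, 9.09, 9.13 and 9.12 with ATRA). Among 90 potassium channels 8 rose and 4 fell, which is the 13.3% of all genes. The sodium pump chain Atp1b2 rose by 0.79 ± 0.06, the calcium-activated chloride channel Ano1 by 0.82 ± 0.07 and the ABC transporter Abcg4 by 0.59 ± 0.05. Of 27 carbonic anhydrases and aquaporins 5 rose and 5 fell, with 4 to 6 called without DMSO replicate 1, DMSO replicate 3, ATRA replicate 1, ATRA replicate 2 or ATRA replicate 3. In that list Aqp3 had the largest change, and Aqp5 rose by 0.35 ± 0.05.

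Metabolic genes changed one by one. Cyp11a1, the side-chain cleavage enzyme that starts steroid synthesis, was at 8.97, 9.22 and 9.22 with DMSO and at 10.24, 10.39 and 10.41 with ATRA, a rise of 1.21 ± 0.09 (adjusted p = 2.61e-06). In its list of 79 cytochrome P450 genes outside the Cyp26 group, 3 rose and 6 fell (11.4%). Of 70 genes of fatty acid handling 9 rose and 8 fell. The elongase genes Elovl4 (0.92 ± 0.07) and Elovl6 (0.52 ± 0.06) and Acaca (0.41 ± 0.05), the enzyme that commits carbon to fatty acids, rose, and Slc27a2, a fatty acid transporter and acyl-CoA synthetase, fell by 1.24 ± 0.09. Of 60 oxidant defence genes 4 rose and 6 fell, with the lipid peroxidase Gpx4 at 0.68 ± 0.06 and glutaredoxin (Glrx) at -0.69 ± 0.07. Among 36 phospholipases A2 and prostanoid genes 5 rose and 3 fell. The prostaglandin E synthase gene Ptges rose by 0.62 ± 0.05, while Ptgs2, which acts before it in the pathway, fell by 0.38 ± 0.05, and Pla2g7 fell by 0.77 ± 0.05. Oxidative phosphorylation had 1 of 86 genes higher, 1 lower (2.33%) and a median difference of -0.02. Without DMSO replicate 1 or ATRA replicate 3, 1 was called. The member that rose was Cox7a1, a cytochrome oxidase subunit of heart and muscle, by 0.94 ± 0.07 (10.94, 10.84 and 10.92 with DMSO, 11.74, 11.97 and 11.82 with ATRA). Of 39 genes of glycolysis and hexose handling 4 rose and 5 fell, and 3 or 4 were called without DMSO replicate 1, DMSO replicate 3 or ATRA replicate 2.

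In stress and immune lists, 8 of 27 genes of the unfolded protein and integrated stress response rose and 0 fell, with 5 called without DMSO replicate 1, DMSO replicate 3, ATRA replicate 2 or ATRA replicate 3. Ddit3, the transcription factor known as CHOP, rose by 0.48 ± 0.05 (9.19, 9.06 and 9.23 with DMSO, 9.69, 9.60 and 9.63 with ATRA), Xbp1 by 0.29 ± 0.05 and the chaperone gene Hspa5 by 0.25 ± 0.04. These rises were small beside those of the ranked genes. Of 23 p53 and target genes 6 rose and 2 fell, with Gadd45b at 0.85 ± 0.07 and Sesn1 at 0.64 ± 0.07 against Btg2 at -0.56 ± 0.05. In the list of 34 BCL2 family and caspase genes 4 rose and 0 fell (11.8%, against 13.3% of all genes). The survival gene Mcl1 (0.47 ± 0.05) and the death gene Bcl2l11 (0.40 ± 0.05) were among the rises. Of 21 sensors of foreign RNA and DNA 2 rose and 3 fell, with 3 called without any one of DMSO replicates 1, 2 and 3 and ATRA replicates 2 and 3. Ddx58, which encodes the RNA sensor RIG-I, fell from 10.03, 10.14 and 9.95 to 8.80, 8.87 and 8.78, and Mavs, the adaptor it signals through, by 0.21 ± 0.05. Of 65 interferon response genes 4 rose and 7 fell, and 5 to 7 were called when any one array was left out. Irgm1 (-0.73 ± 0.09) and Xaf1 (-0.71 ± 0.06) fell and Irf5 (0.79 ± 0.07) rose. Of 45 MHC and complement genes 7 rose and 4 fell. The class I genes H2-Bl (1.60 ± 0.10), H2-Q5 (0.43 ± 0.07) and H2-Q2 (0.38 ± 0.08) rose, but such near-identical genes can share probes and their separate values are uncertain, and the class II chaperone gene H2-DMa rose by 0.68 ± 0.07.

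Among chromatin genes, the de novo DNA methylation machinery did not move as one: Dnmt3b fell by 0.54 ± 0.05 (10.83, 10.76 and 10.82 with DMSO, 10.31, 10.27 and 10.21 with ATRA) beside the fall of Dnmt3l, and Dnmt3a rose by 0.25 ± 0.05. The full list of 19 methylation and demethylation genes had 3 rises and 3 falls. Of 66 histone methyltransferases and demethylases 7 rose and 3 fell, with 6 called without ATRA replicate 2 or ATRA replicate 3. Smyd2, a lysine methyltransferase gene, was at 9.62, 9.62 and 9.68 with DMSO and at 10.86, 10.87 and 10.89 with ATRA, a rise of 1.23 ± 0.05, and Smyd4 rose by 0.91 ± 0.05. Of 29 Polycomb genes 4 rose and 3 fell: the PRC2 cofactor genes Mtf2 (0.26 ± 0.05) and Aebp2 (0.31 ± 0.04) and the PRC1 subunit gene Rybp (0.25 ± 0.05) rose, and Cbx7 (-0.37 ± 0.06), the PRC1 chromodomain gene of ES cells, fell. Of 45 RNA-binding regulators 5 rose and 9 fell. The neural genes Elavl3 (0.55 ± 0.04) and Msi1 (0.53 ± 0.05) rose, and Lin28a (-0.36 ± 0.04), which blocks maturation of let-7, the epithelial splicing factor Esrp1 (-0.53 ± 0.07) and the mRNA decay factors Zfp36l1 (-0.50 ± 0.06) and Zfp36l2 (-0.42 ± 0.04) fell.

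Among 300 microRNA genes, which the array measures with probe sets to the hairpin or its transcript, 2 rose and 27 fell, which is 9.67% of them. Without DMSO replicate 3 or ATRA replicate 1 the number was 18 or 17. The falls gathered at 2 places: 13 of 39 genes of the imprinted region from Dlk1 to Dio3, 5 of 5 tested genes of the Mir17 cluster with its host transcript Mir17hg (-0.50), and 8 of 214 elsewhere (all calls elsewhere, 9 with 1 rise, came to 3 to 5 without DMSO replicate 3, ATRA replicate 1, ATRA replicate 2 or ATRA replicate 3). This grouping was already seen in earlier results of these data. An array probe set cannot tell which arm of a hairpin is made or whether the mature form changed. Mir92-1, another gene of that cluster, lies on a probe set with several symbols and was not tested. For the 5 tested genes, from a cluster whose products restrain cell death and cell cycle inhibitors, 1 mature arm each, the one known as the main product, is given from RefSeq (GRCm38.p6, all on the + strand) with the seed, bases 2 to 8, in capitals, because the seed sets which targets members share.

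miR-17-5p (Mir17), chr14:115043684-115043706: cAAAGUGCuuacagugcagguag
miR-18a-5p (Mir18), chr14:115043867-115043889: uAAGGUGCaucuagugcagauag
miR-19a-3p (Mir19a), chr14:115044048-115044070: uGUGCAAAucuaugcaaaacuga
miR-20a-5p (Mir20a), chr14:115044183-115044205: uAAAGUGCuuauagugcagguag
miR-19b-3p (Mir19b-1), chr14:115044358-115044380: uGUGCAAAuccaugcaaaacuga

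miR-17-5p and miR-20a-5p share the seed AAAGUGC, miR-19a-3p and miR-19b-3p share GUGCAAA, and miR-18a-5p has AAGGUGC. The falls within this cluster thus covered each of these 3 seeds. MicroRNA genes outside the cluster were not sorted by seed, so nothing is said of other genes with these seeds. Mir19b-1 was at 6.95, 7.20 and 7.41 with DMSO and at 6.48, 6.39 and 6.51 with ATRA (-0.73), and Mir20a at 6.43, 6.42 and 6.46 and at 5.88, 5.79 and 5.94 (-0.57). Mir19a (-0.54), Mir18 (-0.50) and Mir17 (-0.36) followed, of which Mir17 lost its call without DMSO replicate 2, DMSO replicate 3, ATRA replicate 1 or ATRA replicate 2 (-0.44 to -0.27). In each of the 5 the ATRA arrays lay below the DMSO arrays. Their levels differ between probe sets and are not compared.

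In the region from Dlk1 to Dio3, 32 of 39 genes had a difference below 0, with a median of -0.24 and 0 rises, and 8 were called without ATRA replicate 1 or DMSO replicate 2. The 4 genes that fell at least 2-fold are shown with both arms, since the seeds of the 8 arms are all different.

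miR-377-5p (Mir377), chr12:109740515-109740536: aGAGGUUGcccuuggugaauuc
miR-377-3p (Mir377), chr12:109740553-109740574: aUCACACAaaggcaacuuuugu
miR-380-5p (Mir380), chr12:109711806-109711827: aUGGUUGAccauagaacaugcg
miR-380-3p (Mir380), chr12:109711842-109711863: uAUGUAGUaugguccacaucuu
miR-382-5p (Mir382), chr12:109733781-109733802: gAAGUUGUucgugguggauucg
miR-382-3p (Mir382), chr12:109733819-109733840: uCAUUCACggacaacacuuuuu
miR-300-5p (Mir300), chr12:109724318-109724339: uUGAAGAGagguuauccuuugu
miR-300-3p (Mir300), chr12:109724363-109724384: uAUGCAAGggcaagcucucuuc

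Mir377 was at 7.81, 8.18 and 7.82 with DMSO and at 6.49, 6.25 and 6.51 with ATRA, a fall of 1.52 ± 0.15 (adjusted p = 2.73e-05). Mir380 fell by 1.18 ± 0.20, from 6.43, 6.15 and 6.56 to 4.84, 5.62 and 5.15, the widest spread among the 4. Mir382 (7.43, 7.46 and 7.43 with DMSO, 6.32, 6.32 and 6.58 with ATRA) fell by 1.03 ± 0.14 and Mir300 (6.76, 6.96 and 7.20 with DMSO, 5.89, 5.97 and 6.06 with ATRA) by 1.01 ± 0.11. The groups did not overlap in any of these. The long non-coding RNAs of the region, which share its maternal expression, fell as well: Meg3 by 0.77 ± 0.14 (10.54, 10.58 and 10.64 with DMSO, 9.71, 9.88 and 9.88 with ATRA) and Rian by 0.41 ± 0.09.

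**Figure D3:**
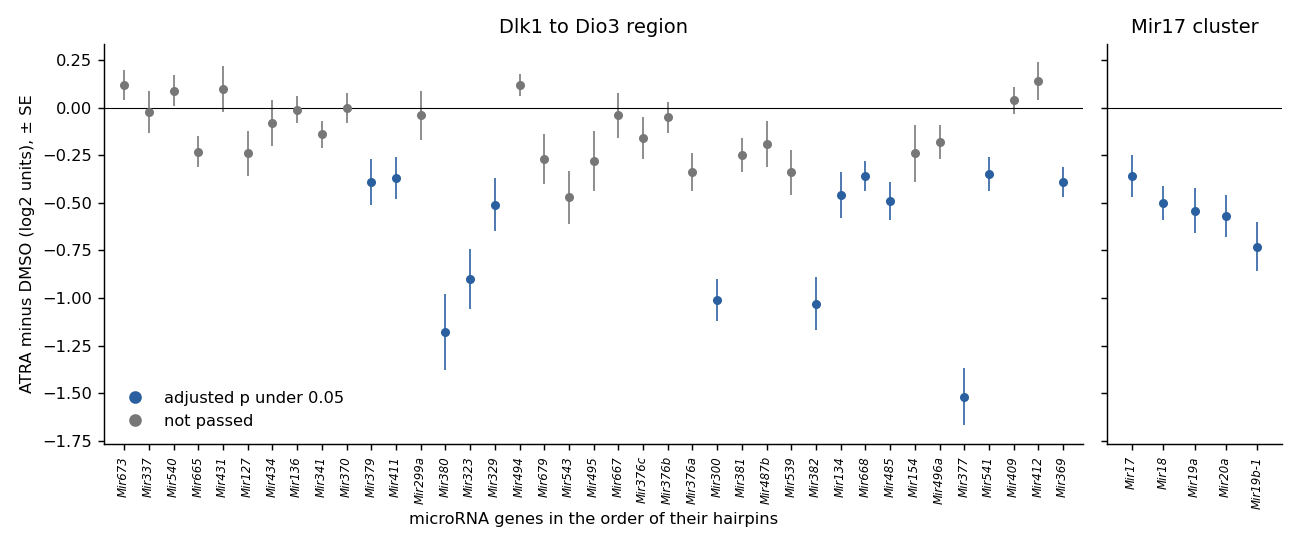
Difference of ATRA from DMSO (log2 units, bars are the SE of the fit, 3 arrays per group) for the microRNA genes of 2 clusters in the order of their hairpins; blue points passed an adjusted p of 0.05. In the region from Dlk1 to Dio3 (left) 13 of 39 points are blue, down to -1.52, with unpassed points at the start of the region on both sides of 0, and in the Mir17 cluster (right) all 5 are blue.

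Imprinted genes, which are expressed from 1 parental copy, had 5 rises and 12 falls among 40 measured (42.5%). The paternally expressed Usp29 (0.50 ± 0.10), Ndn (0.36 ± 0.06) and Nnat (0.31 ± 0.05) and the maternally expressed cell cycle inhibitor Cdkn1c (0.42 ± 0.09) rose, and Mest (-0.47 ± 0.06) and Dcn (-0.41 ± 0.06) fell beside Ascl2 and Meg3. Of 92 genes of meiosis, the germ line and piRNAs 12 rose and 4 fell. Besides Stra8, the germ line regulator Tfap2c rose by 0.83 ± 0.09 (8.17, 8.08 and 8.17 with DMSO, 9.08, 8.97 and 8.86 with ATRA), the piRNA-binding protein gene Piwil4 by 0.52 ± 0.08 and Dazl by 0.38 ± 0.06, and Tdrd12 fell by 0.47 ± 0.09. Tfap2c is also a marker of trophoblast, and of the 10 measured trophoblast markers 1 rose and 2 fell. In the cell cycle list of 73 cyclins, kinases and inhibitors 5 rose and 8 fell, against 8 and 6 after quantile normalization, with 8 called without ATRA replicate 2 or ATRA replicate 3. Cdk6 fell from 10.52, 10.55 and 10.55 to 9.66, 9.64 and 9.70, Ccnd2 rose by 0.43 ± 0.05, and the little-studied kinase gene Cdk15 rose from 6.40, 6.52 and 6.49 to 8.16, 8.19 and 8.23.

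Non-Hox genes next to the HoxA and HoxB clusters were also read. Of 22 measured, 5 rose and 1 fell (27.3%). Ttll6, a tubulin glutamylase gene listed next to Calcoco2 on the Hoxb13 side of the HoxB cluster in the order of the RefSeq gene table, was at 7.14, 7.01 and 7.03 with DMSO and at 8.24, 8.13 and 8.14 with ATRA, a rise of 1.11 ± 0.07. Copz2 rose by 0.42 ± 0.05, and Snx10, near HoxA, fell by 0.45 ± 0.06. Calcoco2, whose values above come from the probe set with the higher mean level, has another one, at 7.20, 7.39 and 6.99 with DMSO and at 9.37, 9.57 and 9.41 with ATRA, a rise of 2.25 ± 0.12. The annotation used here does not give the positions of these probe sets, so which of them reads the gene beside HoxB is not known.

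Some large families had few members that passed. Of 61 cytosolic ribosomal proteins, 33 aminoacyl-tRNA synthetases, 48 proteasome subunits and 165 vomeronasal receptors 0 passed. Without DMSO replicate 3, 1 proteasome gene was called, and without DMSO replicate 2, 2 vomeronasal receptors. The medians were -0.00, -0.02, -0.00 and -0.01. Ribosomal and proteasome genes are expressed in every cell, while vomeronasal receptors are genes of sensory neurons. Of 1027 olfactory receptors 13 passed (1.27%), 3 of them higher, against 12 higher and 6 lower after quantile normalization and 3 or 8 in all without DMSO replicate 1, DMSO replicate 3 or ATRA replicate 3. Of 34 protocadherins 1 passed, and of 67 chemokines and interleukins 4 fell and 0 rose (5.97%), with Ccl2 at -0.55 ± 0.06 and Ccl7 at -0.46 ± 0.05.

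The 6 marker lists of cell kinds that EBs can hold had 30.0% to 46.7% of their members called, against 13.3% of all genes. Their members were chosen with earlier results of these data known, and all genes include many weakly detected ones, so the shares are not like for like. The mean level of 15 visceral endoderm markers was 9.92 to 10.11 with DMSO and 9.79 to 9.94 with ATRA, ranges that overlap, with 1 rise (Gata6) and 5 falls, or 40.0%, among them Hnf4a (-0.42 ± 0.07) and Dab2 (-0.35 ± 0.06), and 3 calls without DMSO replicate 1 or ATRA replicate 3. The 15 fibroblast markers had means of 8.24 to 8.29 and 8.18 to 8.21, which do not overlap, with 2 rises and 5 falls (46.7%), among them Fbln1 at 0.55 ± 0.06 and Tgfbi at -0.54 ± 0.06. The 10 trophoblast markers had overlapping means of 7.95 to 8.05 and 7.90 to 8.02, with 1 rise (Tfap2c, 0.83 ± 0.09) and 2 falls, of which Ascl2 was the larger. The 14 blood and endothelium markers had means of 7.77 to 7.81 and 7.81 to 7.88, with Pecam1 at 0.73 ± 0.05 and Cd34 at -0.35 ± 0.06 (3 calls of 5 without ATRA replicate 2). The 11 neural markers had means of 8.49 to 8.56 and 8.46 to 8.48, again without overlap. Of these 45.5% were called, Pax6, Elavl3 and Msi1 higher and Otx2 and Map2 (-0.42 ± 0.09) lower. Otx2 (-2.17) had by far the largest change, and the median difference of the list was 0.04, so the lower means do not describe most members. The 15 pluripotency markers had means of 12.38 to 12.42 and 12.28 to 12.29. Of these 1 rose (Tbx3, 0.35 ± 0.05) and 6 fell, 4 in all being called without DMSO replicate 1, ATRA replicate 1 or ATRA replicate 3, and Zfp42, a marker of naive ES cells, fell by 0.57 ± 0.06. The part of changing cell proportions in the gene results was not tested.

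The direction of the ATRA response was set beside the change from ES cells to day 4 EBs, a comparison that shares no array with it. Of all genes, 17.8% were higher in day 4 EBs than in ES cells and 16.9% lower. Of the 68 genes at least 2-fold higher with ATRA, 53 (77.9%) were lower in day 4 EBs than in ES cells and 8 (11.8%) higher. Of the 18 genes at least 2-fold lower with ATRA, 16 (88.9%) were higher in day 4 EBs than in ES cells and 2 lower, namely Ddx58 and Serpinb9b. Among all 1249 genes that rose, 579 (46.4%) were lower in day 4 EBs than in ES cells and 155 (12.4%) higher, and among all 1406 that fell, 778 (55.3%) were higher there and 256 (18.2%) lower. The largest responses thus mostly ran opposite to the difference of day 4 EBs from ES cells. Whether the state of the day 4 EBs came before the treatment is open from the labels. For example, Aqp3 had a mean of 11.41 ± 0.09 (SD, n = 3) in ES cells, 9.24 ± 0.09 in day 4 EBs and 11.88 ± 0.04 with ATRA. Otx2 had means of 7.75 ± 0.08, 10.67 ± 0.12 and 8.75 ± 0.06 in the same groups. Other genes did not follow that pattern: Acp5 was at 9.71 ± 0.00 in ES cells and 9.69 ± 0.04 in day 4 EBs, and Sema3e at 7.25 ± 0.00 and 7.25 ± 0.12. Cyp26a1 and Lefty1 were higher in day 4 EBs than in ES cells and also higher with ATRA than with DMSO. The fibroblast markers stood at 9.24 to 9.29 in ES cells and 8.27 to 8.37 in day 4 EBs, and their part in the values of ES cells was not tested.

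**Figure D4:**
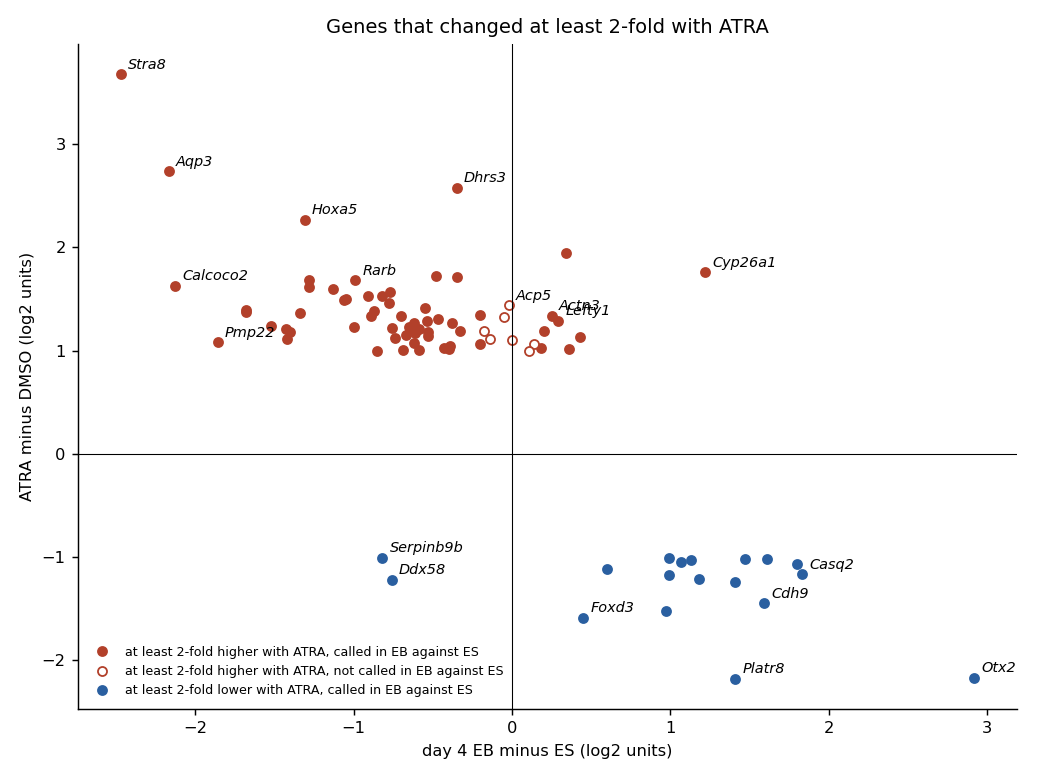
Difference of ATRA from DMSO (vertical, log2 units) against the difference of day 4 EBs from ES cells (horizontal, log2 units) for the 86 genes that changed at least 2-fold with ATRA, 3 arrays per group; filled points passed an adjusted p of 0.05 in the comparison of day 4 EBs with ES cells. Of the 68 genes above the line 53 are filled and lie left of 0, and of the 18 below it 16 lie right of 0, with Otx2 farthest at 2.92.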

How the data were processed

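Total RNA of the 12 D3 samples was hybridised to Affymetrix arrays as biotinylated single-stranded cDNA, per the labels' protocols. The authors deposited 1 table of log2 values for 35556 probe sets; the values run from 2.30 to 14.7, from which a log2 scale was inferred. The method of background correction, normalization and summarization is not given in the sources used here. Array medians lay between 7.76 and 7.86 and the 3 arrays within a group correlated at 0.998 to 0.999 for DMSO and ATRA. Of the probe sets, 21789 had exactly 1 symbol in the platform annotation (1621 had several and 12146 none listed), and where a gene had several of these the one with the highest mean level was kept, with no filter on low values. Some genes are not reported here.

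A mean per group was fitted over all 12 arrays with limma 3.58.1 in R 4.3.3 (lmFit, contrast of ATRA with DMSO, two-sided eBayes with 8 residual degrees of freedom and 3.93 from the prior), and p-values were adjusted by Benjamini-Hochberg over the 19938 genes. The fit was tested on simulated data with known changes. The p-values measure the spread between these samples. With 3 arrays a group, their number limits the precision, and an exact permutation test of 3 against 3 could not go below 0.1. The members and lists were chosen with earlier results of these data known. Genes are named by a rule: the 15 largest rises and falls among called, non-overlapping genes outside the Hox, retinoid, microRNA, small nucleolar RNA, olfactory and vomeronasal receptor and predicted genes, up to 4 called genes per direction and list, and check genes; the members of a list of at most 12 may all be named. The genes with promoter matches other than Cyp26a1 and Rarb, the Mir17 cluster and 6 of the 2-fold genes lie outside it and were named after their values were seen. Of the 629 called genes that could be named, not all of which are, 24 had another single-symbol probe set. In 13 of the 24 another probe set was called in the same direction, and in 0 in the opposite direction. Promoters and microRNAs came from RefSeq tables of GRCm38.p6, matched by symbol. Alternatives were other scalings, filters, probe set rules, variance priors, array weights, the 6 arrays alone, a replicate block, each array left out, and stricter thresholds.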

Additional observations from a re-analysis of the deposited data

How the results depend on the processing

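The count of 2655 genes was 4311 with array weights (2062 higher, 2249 lower), 1605 at an adjusted p of 0.01 (787 higher, 818 lower) and 342 with a 1.5-fold limit (207 higher, 135 lower). With each of the 6 arrays left out in turn it ran from 1868 to 2066, with 904 to 1010 higher and 964 to 1085 lower. The share of called genes that were higher was 47% and moved to 54.2% after quantile normalization, which shifted the median of all genes to 0.024, to 48.3% after median centring, and to 38.5% when only genes above the median of mean level were tested, which also removed genes from the test. Under the other settings the counts ran from 2303 to 3697. The 6 arrays alone gave 3697, and an intensity trend with a robust prior 3163. Of the genes called in the reported fit, 0 changed sign under an alternative that kept them in the test. Stricter thresholds, other variance priors, the 6 arrays alone and the replicate block leave each difference as it is. Under these settings a change of sign was not possible, and genes that a filter removed were not compared. Of the 629 called genes that could be named, not all of which are, 487 kept their call in all 6 fits with 1 array left out and 142 lost it in at least 1. Those lost in the text stand beside their values. Dab2 was not called with the mean of its probe sets. The probe set not used was not called for Dab2 (0.04 ± 0.09), Tmem154 (-0.23 ± 0.09) or Rybp (0.18 ± 0.09). The replicate number as a block gave 2553 genes (1217 higher, 1336 lower). The same-numbered DMSO and ATRA arrays correlated at 0.088, -0.0376 and -0.00727 in their deviations from the group means, so the numbers were not taken as pairs. DR5 matches with identical cores were in 0.205% of higher, 0% of lower and 0.0148% of not passed genes. Arrays put on one distribution cannot show a change in the total RNA of a cell, and values near either end of the range can be compressed.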
